A study of Mus musculus with 15 samples.

Results

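The genes described here carry mouse symbols that begin with Vps, Stx or Vamp followed by a digit. They encode proteins of vacuolar sorting and the syntaxins and vesicle-associated membrane proteins that fuse membranes. Of 22219 protein-coding symbols in GENCODE vM1 on the mm9 genome, 49 qualified: 29 Vps, 15 Stx and 5 Vamp genes. Vps28 and Vamp4, which fit the pattern, were not analysed here.

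Chromatin immunoprecipitation with sequencing (ChIP-seq) had been done on 15 samples, and 14 of them had peak lists. Binding of Myc (antibody N262) and of RNA polymerase II (RNAPII, antibody N20) was followed in 3T9-MycER cells over 6 times, before activation (0 min) and 10 min, 20 min, 30 min, 2 h and 4 h after it. 3T9-MycER is an embryonic fibroblast line (E13.5) whose c-myc alleles are floxed and which was infected with a pBabe retroviral construct for MycER, a Myc fusion that 4-hydroxytamoxifen (OHT, 400 nM) switches on. All fibroblast samples, the 0 min ones included, carry both the floxed alleles and the construct, and a Myc peak can come from the cell's own Myc as well as from the fusion. Miz1, a zinc finger protein that binds DNA and also Myc, was profiled with antibody 10E2 in these fibroblasts without activation and in B cells. The B cells were taken with B220 beads from the spleen of wild-type C57BL/6 mice of 6 to 8 weeks, and how many animals were pooled is not given in the sources used here. Each group held 1 library, so differences between times or cell types could not be set against a spread between replicates, and none is tested.

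Vesicles move cargo between the Golgi, endosomes, lysosomes and the cell surface. Tethering complexes such as HOPS, CORVET and GARP catch a vesicle at its target, and syntaxins and VAMPs, which are SNARE proteins, then zip together and fuse the membranes. Retromer returns receptors from endosomes, and the ESCRT machinery sorts ubiquitinated cargo into multivesicular bodies on the way to the lysosome. Fibroblasts and lymphocytes both depend on these routes, and some syntaxins serve chiefly neurons or polarized epithelia.

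By role, the genes comprised 4 retromer subunits, 8 genes of the ESCRT machinery with the Vps4 ATPases, 9 HOPS or CORVET subunits and SM proteins, and 3 GARP subunits. A further 4 encode Vps13 bridge-like lipid transfer proteins, 7 encode syntaxins of the cell surface, 8 encode syntaxins of internal membranes and 5 encode VAMPs. Vps72 stands apart, since it encodes a subunit of complexes that exchange a histone variant rather than a part of the sorting machinery. The median gene was 27620 bp long, against 15525 bp over all protein-coding genes. Another protein-coding gene started within 1000 bp of 9 of them (18.4%, against 12.3% of all genes), and a peak there cannot be assigned to one gene.

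The Myc libraries held 28132063 to 33431447 tags and the RNAPII libraries 15276996 to 36396286, the deepest of which was that at 20 min. The Miz1 libraries held 10164509 tags in fibroblasts and 24237295 in B cells, and their lists were called at different p cutoffs, 1.00e-02 and 1.00e-05. Fibroblast markers had an RNAPII promoter peak at 0 min for 9 of 10 genes (all but Thy1). The same held for 0 of 8 B cell markers, 1 of 7 markers of T and myeloid cells (Lck) and 0 of 4 of neurons. No list here measures RNAPII in the B cells, so their identity could not be checked in the same way.

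A gene was counted as bound where a peak touched the 1000 bp either side of the start (TSS) of one of its protein-coding transcripts, here called its promoter. Fold enrichment is the authors' value for a peak over its local control. It ranks peaks within a list and is not compared between lists. Most of the genes fell into 2 kinds: 38 had Myc at their promoters at all 6 times, and 6 had neither Myc nor RNAPII at any time (43.3% and, for Myc, 50.4% of all genes). The grid of calls shows how few of the genes lay between.

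**Figure D1:**
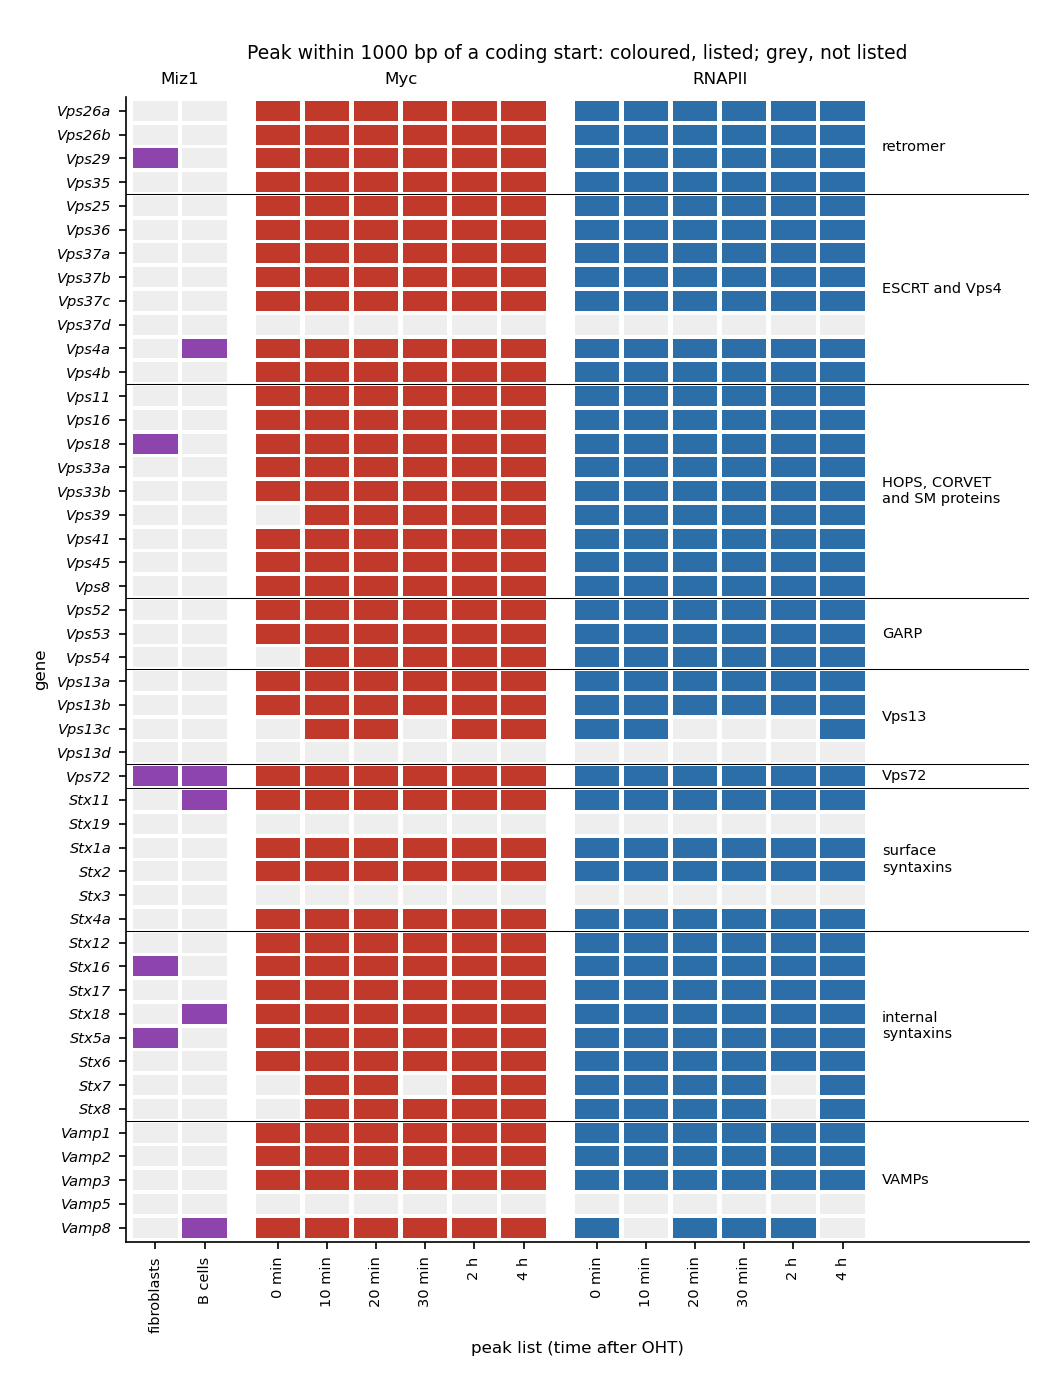
Each row is 1 of 48 of the 49 genes, grouped by role, and each column is 1 peak list (Miz1 in 2 cell types, Myc and RNAPII at 6 times). A coloured cell marks a peak within 1000 bp of a protein-coding start and a grey cell none. Miz1 appears at 5 genes in each cell type and in both at Vps72, while 38 rows are filled for Myc at every time and 5 are empty for Myc and RNAPII throughout.

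Miz1 lay at very few of these promoters, but 2 of the genes had peaks among the strongest of both lists. In fibroblasts 5 of 49 promoters (10.2%) had a Miz1 peak, against 8.25% of all genes. In B cells it was again 5 of 49, against 5.48% of all genes. Each share rests on 5 genes and says nothing particular about the genes as a set. More of these genes than of all genes had RNAPII at 0 min. With only genes that had such a promoter peak, the fibroblast share was 11.6%, against 16.1% of all such genes. The B cell share was 11.6%, against 10.3%, with RNAPII still taken from the fibroblasts. The 2 sets of 5 shared 1 gene, Vps72, and 2.43% of all genes were called in both lists.

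The peak at Vps72 (ENSMUSG00000008958.8, chromosome 3) was enriched 224-fold in fibroblasts and ranked 8 of 8310 peaks. Its summit lay 31 bp upstream of the only annotated coding start. In B cells the fold was 89.3 and the rank 47 of 4488, with the summit 1 bp past the start, in the first bases of the 5′ UTR. Thus the centre of Miz1 lay on the transcription start in both cell types.

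A site of like strength lay at Vps13d, which encodes the Vps13 protein tied to mitochondria and peroxisomes. Its Miz1 peak was enriched 209-fold in fibroblasts (rank 11 of 8310) and 133-fold in B cells (rank 8 of 4488), and the summits in the 2 lists were 1 bp apart, at chromosome 4, 144784980 and 144784979. The promoter count misses it: the nearest coding start is 4411 bp downstream of the fibroblast summit. The summit is instead 82 bp upstream of the outermost annotated start of the gene (144784898, minus strand), which belongs to a transcript annotated without a coding sequence. With the starts of all annotated transcripts, a rule chosen after the peak had been seen, Vps13d was added in both lists, which gave 6 genes in each (8.73% and 5.78% of all genes) and 2 in both. Myc and RNAPII peaks lay at the same start at all 6 times. The Myc folds there were 5.47, 6.14, 7.81, 7.65, 9.34 and 10.2 from 0 min to 4 h, low within their lists. The RNAPII folds were 11.5, 11.5, 12.5, 12, 9.55 and 9.25. So the gene without any call at its coding starts had peaks of all 3 proteins at its upstream start.

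Vps13a, which encodes another lipid transfer protein of the family, had a strong Miz1 peak in B cells that had no counterpart there in the fibroblast list. It was enriched 65.1-fold (rank 108 of 4488), with its summit in an intron, 2022 bp past the nearest coding start. Widening the promoter to 2500 bp brought it in.

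The sequences at the Vps13d and Vps13a sites are shown because these peaks are among the highest of the group. They were read from the mm9 genome in the direction of the gene. The Vps13d window is chr4:144784930-144785030 (minus strand), centred on the fibroblast summit. The Vps13a window is chr19:16853180-16853320 (minus strand), set off centre from its summit at 16853290. Its capitals mark the 2 arms of an inverted repeat that a search of this window found. A centred window of 101 bp, as at Vps13d, would not hold both arms.
Vps13d: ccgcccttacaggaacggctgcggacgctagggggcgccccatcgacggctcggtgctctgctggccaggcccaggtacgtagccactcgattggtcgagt
Vps13a: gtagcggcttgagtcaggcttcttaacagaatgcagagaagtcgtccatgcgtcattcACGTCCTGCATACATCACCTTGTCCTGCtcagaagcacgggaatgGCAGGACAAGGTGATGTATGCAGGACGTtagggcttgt

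The arms at Vps13a are 28 bp long, match each other in full as reverse complements and are 17 bp apart. The nearer arm begins 28 bp from the summit. The Vps13d window, of 101 bp, holds 68.3% G and C with 11 CpG pairs, and the Vps13a window, of 141 bp, 51.8% with 6. Neither window holds CACGTG, the E-box that Myc and its partner Max recognise, or the palindrome ATCGAT. Both motifs read the same on either strand and do not overlap each other. In the 200 bp around the Miz1 summits, ATCGAT was present at none of the 5 promoter peaks in either list, against 2.31% of all promoter peaks in fibroblasts and 3.14% in B cells, and CACGTG was also at none, against 5.64% and 5.26%.

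The other Miz1 calls were weaker. In fibroblasts Stx5a, a syntaxin of the Golgi, had 8.21-fold, Vps18, a core subunit of HOPS and CORVET, 5.96-fold, Vps29, a retromer subunit, 4.47-fold, and Stx16, a syntaxin of the trans-Golgi, 3.97-fold. The last 3 ranked 4080, 6939 and 7591 of 8310, and the Vps29 peak lay in the 5′ UTR of its neighbour Rad9b. All 3 were lost when the fibroblast list was held to the stricter cutoff of the B cell list, which left 2 genes, Stx5a and Vps72. The Stx5a peak also touches the promoter of its neighbour 1700092M07Rik. In B cells Vps4a, one of the ATPases that disassemble ESCRT-III, had 19.4-fold at 876 bp upstream of its start, and Stx18, a syntaxin of the endoplasmic reticulum, had 12.1-fold at 4 bp upstream. Stx11, a syntaxin needed for the release of cytotoxic granules, had 8.53-fold and Vamp8, an endosomal and lysosomal VAMP, 5.57-fold. All promoter calls in either cell type were at genes with an RNAPII promoter peak in fibroblasts at 0 min. Over all genes this held for 1694 of 1833 with a Miz1 promoter peak in fibroblasts and 1087 of 1217 in B cells, so it is not particular to these genes.

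**Figure D2:**
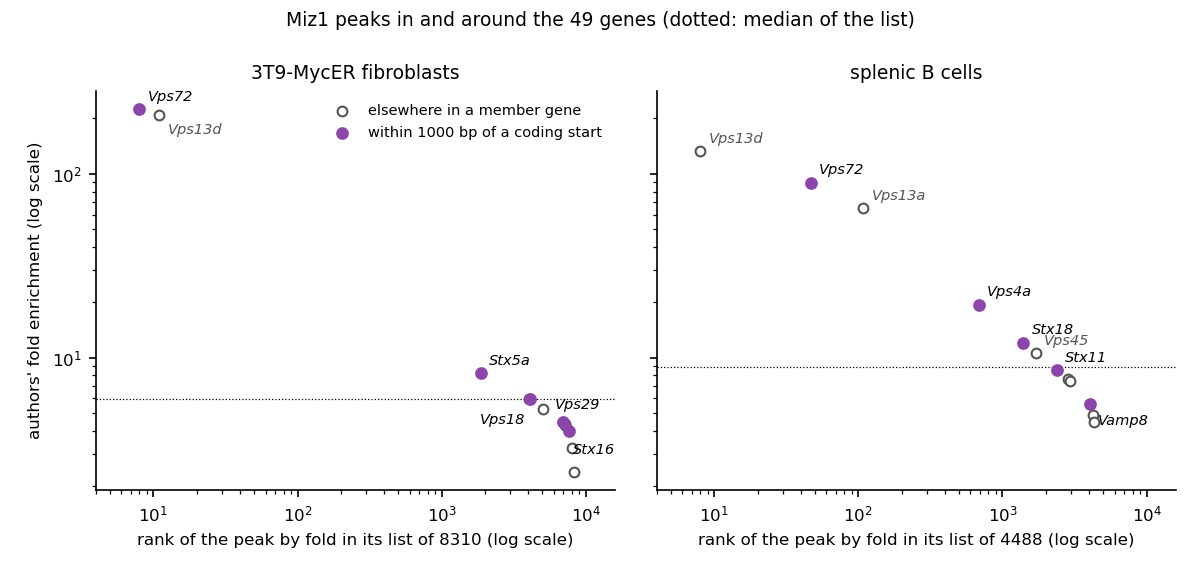
Fold enrichment (log scale) of each Miz1 peak in or around the 49 genes against its rank in the list (log scale), for fibroblasts on the left and B cells on the right. Filled points touch the 1000 bp around a coding start, open points lie elsewhere in a gene, and the dotted line is the median of the list (5.96 and 8.92). Vps72 and Vps13d stand at the top left of both plots, Vps13a joins them in B cells, and the remaining points lie below 20-fold.

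Myc was at most of these promoters before OHT and at a few more after it. From 0 min to 4 h the count of genes with a Myc promoter peak was 38, 43, 43, 41, 43 and 43 of 49. Over all genes the shares were 44.7%, 46.8%, 47.9%, 46.6%, 48.9% and 46.7%. All 38 genes bound at 0 min were bound throughout. The large gap to the background goes with RNAPII: 43 of the 49 had an RNAPII promoter peak at 0 min, against 47.5% of all genes. Among genes with such a peak, Myc was present at 0 min at 38 of the 43 (88.4%, against 89.6% of all such genes) and at 4 h at 43 of 43 (100%, against 92.2%).

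Lacking Myc at 0 min but having it throughout from 10 min on were 3 genes (1.62% of all genes): Stx8, a syntaxin of late endosomes, Vps39, a HOPS subunit, and Vps54, a GARP subunit. Wdr16 starts within 1000 bp of Stx8, so the Myc and RNAPII promoter peaks there cannot be assigned to Stx8 alone. Stx8 had folds of 7.45, 9, 7.41, 12.5 and 9.81 from 10 min to 4 h. At Vps39 they were 7.86, 7.16, 10.4, 8.89 and 6.24. Vps54 had 6.80, 9.69, 11.4, 6.77 and 7.60. All 15 of these values were below the median promoter fold of these genes in their own list, so the gained sites were among the weaker ones. The 0 min library was the deepest of the Myc series (33431447 tags) and yielded the fewest peaks, 19995. With the same number of peaks taken from every list, Vps39 alone of the 3 stayed in this class.

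Stx7, a partner of Stx8 in late endosomal fusion, and Vps13c lacked a Myc call at 0 min and at 30 min (4.65% of all genes had some such broken pattern). In the lists of 10 min, 20 min, 2 h and 4 h, Stx7 had folds of 6.30, 5.58, 6.20 and 6.04. Vps13c had 6.36, 8.48, 13.3 and 6.71. Without the 30 min list both would count as gained, which gave 5 genes. An RNAPII promoter peak was listed at 0 min at all 5, as at 43 of the 49 genes (47.5% of all genes), so this does not set them apart. That of Vps13c was absent from the second set of RNAPII lists described below. The same share over all gained genes was not computed.

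The highest Myc folds at 4 h were at Vps52, a GARP subunit, with 46.2, 68.6, 66.0, 61.0, 68.9 and 57.8 over the 6 times. That peak also covers the start of the ribosomal protein gene Rps18, and its summit at 4 h lay in an intron of Rps18. Vps4b, the other Vps4 ATPase, had 34.5, 59.1, 63.3, 46.2, 58.1 and 52.9, with the 4 h summit 76 bp upstream of its start and no other gene's promoter beneath it. Vps29 (42.4-fold at 4 h) shares its peak with Rad9b, and Vps16, a HOPS core subunit (36.3-fold), shares its with Fam113a. The next were Stx4a (31.4-fold), the syntaxin of surface delivery, Stx16 (30.2-fold), Stx12 (26.1-fold), a syntaxin of recycling endosomes, and Vps33b (21.8-fold), an SM protein. Of the 8 highest, 3 therefore had a summit inside a neighbour's transcript. The median fold of the 43 bound genes at 4 h was 14.7, against 18.3 over 10378 genes with a Myc promoter peak, and 14 of the 43 were above that gene median. A lower median was also seen at the other 5 times.

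**Figure D3:**
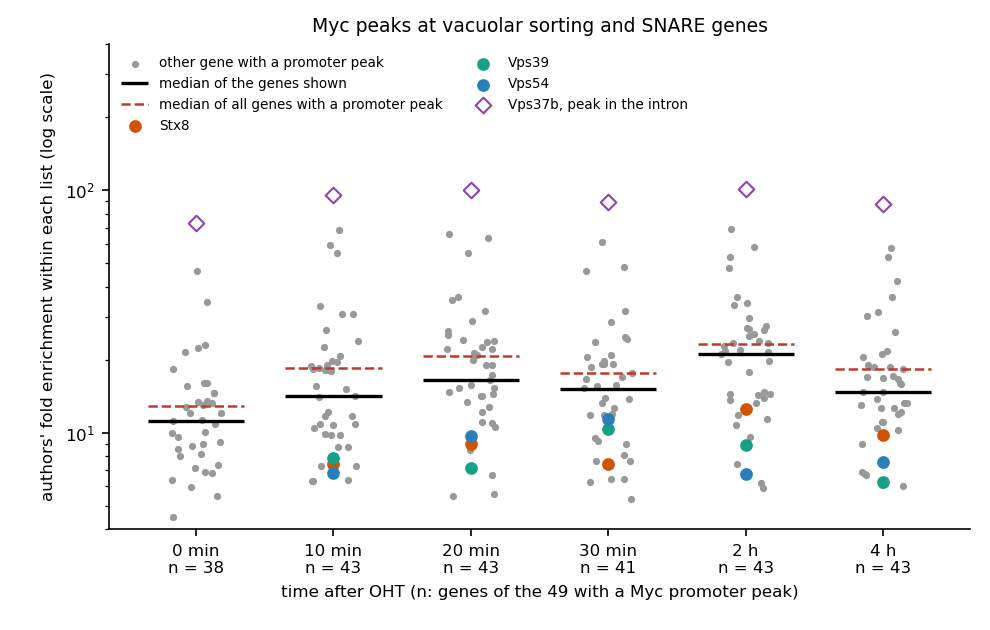
Fold enrichment within each Myc list (log scale) at the 6 times, with 1 point for each of the 38 to 43 genes that had a promoter peak. Black lines are their medians, dashed red lines the medians of all genes with a promoter peak, coloured points Stx8, Vps39 and Vps54, first called at 10 min and in each list from then on, and diamonds the intronic peak of Vps37b. The black line lies below the red at every time, the coloured points lie below both, and the diamonds lie above all promoter points.

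CACGTG was near few of the summits. At 4 h it lay in the 200 bp around the Myc promoter summit at 5 of 43 genes (11.6%, against 17.7% of all promoter peaks), and at 0 min at 6 of 38 (15.8%, against 19%). The 5 sites at 4 h are printed with 12 bases on each side and with the E-box in capitals, since they show which flanks occur. They lie at chr7:134985024-134985053 (plus strand) for Stx4a, chr9:44169736-44169765 for Vps11, chr19:16854819-16854848 for Vps13a, chr10:61949718-61949747 for Vps26a and chr5:124023019-124023048 for Vps33a, the last 4 on the minus strand.
Stx4a: ggcccggcctgtCACGTGatgagggggcgc
Vps11: cgcctttcggttCACGTGatttcgcttccg
Vps13a: cacgccgacttgCACGTGaagaccaggcgc
Vps26a: cgcacggctcgtCACGTGacaactagctct
Vps33a: tgaacgtcccgtCACGTGacgcaggcggcg

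These E-boxes were 38 to 92 bp from their summits. Among them Stx4a alone is one of the 8 genes with the highest folds at 4 h. The next shares were taken around the annotated gene start, which can differ from the coding start used above. Within 1000 bp of it, 24.5% of the 49 genes had CACGTG, against 27.9% of all genes, and ATCGAT was there in 4.08%, against 6.98%. Stx4a is not among the genes counted for CACGTG, since its gene start lies away from the coding start at its Myc peak.

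The strongest Myc peak in any of the genes was not at a promoter. Vps37b (ENSMUSG00000066278.5, chromosome 5, 124454650 to 124482269, minus strand), an ESCRT-I subunit, had an intronic peak with folds of 73.0, 95.9, 99.7, 89.1, 102 and 87.8 from 0 min to 4 h. The peak at its promoter had 10.1, 10.5, 14.1, 15.8, 21.1 and 13.3 in the same lists. At 0 min the intronic peak ranked 17 of 19995, and its summit lay 24959 bp past the start. The 101 bp around that summit (chr5:124457260-124457360, minus strand) hold a CACGTG, in capitals, which is why they are shown.
Vps37b: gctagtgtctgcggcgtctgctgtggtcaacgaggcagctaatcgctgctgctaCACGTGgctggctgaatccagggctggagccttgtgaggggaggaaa

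Stx8 had a cluster of intronic Myc peaks while its promoter had none at 0 min. Their number was 6, 8, 12, 7, 10 and 11 from 0 min to 4 h, and at 0 min the highest, at 12.8-fold, lay 126150 bp past the nearest coding start. Since Stx8 is 240956 bp long, more peaks can fall inside it than inside most of the genes. Over all 49 genes there were 15 Myc peaks touching a gene away from its coding starts at 0 min, in 9 genes, and 23 at 4 h, in 9 genes. Not all were intronic: the counts include the peak at the upstream start of Vps13d and a peak over the end of Vps25 with its summit between transcripts. The 4 h list also held more peaks in all (23617, against 19995 at 0 min), and the same counts over all genes were not computed.

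RNAPII promoter calls were steady over the course. From 0 min to 4 h 43, 42, 42, 42, 40 and 42 of the 49 genes had one, and the shares of all genes were 47.5%, 47.3%, 48.4%, 46.4%, 46.3% and 46.8%. At all 6 times 39 genes were called (43.5% of all genes) and 6 at none (50% of all genes). The 4 others (6.15% of all genes) had promoter peaks below the median fold of all genes with one, which was 23.1 to 29.9 over the 6 times. Stx7 (14.1, 10.4, 13.6 and 11.8-fold up to 30 min, 13.9 at 4 h) and Stx8 (15.8, 15.9, 9.77 and 9.70, then 10.2 at 4 h) had no call at 2 h. Vamp8 was not called at 10 min or 4 h and had 6.29 before OHT, then 8.11, 7.51 and 7.76 in the lists of 20 min, 30 min and 2 h. Vps13c was called at 0 min (9.22), 10 min (6.35) and 4 h (6.92). The broad lists are a second set of RNAPII peaks called by the authors with another version of their peak caller. Despite the name, their regions were shorter, with median lengths of 787 to 854 bp against 2616 to 3174 bp in the narrow lists. In the broad lists 40 genes were called at all 6 times (41.3% of all genes) and 7, with Vps13c added, at none (52.6%). There Stx7 was called at all 6 times, and Stx8 again lacked a call at 2 h only. Vamp8 was called at 0, 10 and 20 min and not later, so its gaps and that of Stx7 differed between the lists.

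Among the genes without Myc or RNAPII at any coding start were Stx3, Stx19, Vamp5, Vps37d and Vps13d. Stx3 and Stx19 are syntaxins known from epithelia, and their nearest Myc peaks at 4 h were 47306 bp and 26729 bp away, at Mrpl16 and Nsun3. Vamp5, a VAMP known from muscle, had an intronic Myc peak at 0 min (6.53-fold, 8715 bp from its start), and its nearest peak at 4 h was in Vamp8. Vps37d, which like the other Vps37 proteins belongs to ESCRT-I, had its nearest Myc peak at 4 h 13240 bp away, at Wbscr22. For Vps13d the nearest peaks were those at its upstream start. Whether missing calls go with the tissue that a gene serves was not tested. Stx11, needed for cytotoxic granules, and Vamp2, a synaptic and endosomal VAMP, had Myc and RNAPII at all 6 times.

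RNAPII peaks covered little of the bodies of these genes. The body is the gene without its first 1000 bp, and its cover, the percent of it under RNAPII peaks, was taken for genes of at least 3000 bp with an RNAPII promoter peak at 0 min. All 43 such genes entered, of 9763 genes in all. Mean cover was 10.4%, 12.5%, 16%, 11.7%, 9.96% and 9.39% from 0 min to 4 h, against 21.6%, 27.9%, 33%, 24.5%, 25.7% and 22.7% over all genes. The median at 0 min was 1.66%, against 4.82%, and 33 of the 43 had under 10% (76.7%, against 60.4%). The median length of the group is above that of all protein-coding genes, but the lengths of the 9763 genes compared here were not examined. What length contributes was not tested.

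A change of over 20 points from 0 min, in 1 library per time, was seen in 3 of 43 genes upward and 2 downward at 30 min, against 9.22% and 4.04% of all genes. At 4 h it was 1 upward and 3 downward, against 7.32% and 4.86%. At 10 min 2 were higher and 1 lower (12.9% and 1.77% of all genes). In the 20 min library, the deepest, 4 were higher and 0 lower (22.1% and 2.13%), and at 2 h 0 were higher and 2 lower (10.5% and 3.49%). As shares of the 43 genes, those higher were 4.65%, 9.3%, 6.98%, 0% and 2.33% from 10 min to 4 h, below the share of all genes at each time. Those lower were 2.33%, 0%, 4.65%, 4.65% and 6.98%. At 10 min, 30 min, 2 h and 4 h they were a little above the share of all genes, where the whole count was 1 to 3 genes. These differences were not tested. In the broad lists 0 of 42 genes passed this threshold at 30 min or 4 h, against 3.07% up and 0.894% down, and 2.33% up and 1.11% down, of all genes. The shorter regions of those lists cover less: mean cover over all genes at 0 min was 5.6%, against 21.6% in the narrow lists. A change of 20 points was thus rarer there over all genes too.

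Vps37b had the largest difference. Its cover was 36.9%, 78.5%, 100%, 98%, 52.3% and 54.8% over the 6 times, which is 61.1 points higher at 30 min than at 0 min and 17.9 points higher at 4 h. The peak at its promoter reached 2199 bp into the gene at 0 min, 16788 bp at 10 min, 20840 bp at 30 min, 2595 bp at 2 h and 4716 bp at 4 h. The promoter peak covered 4.51% of the body at 0 min and 74.5% at 30 min. At 20 min a single peak spanned the whole gene and 6033 bp beyond it. The peak at the far end also ran past the gene at the other times, and at 10 and 30 min its summit lay in the 3′ UTR of the neighbour Hip1r. At 0 min a second peak (11.5-fold) had its summit 25089 bp past the start, 130 bp from that of the intronic Myc peak. In the broad lists the cover of the gene was 5.85%, 12.3%, 32.9%, 13.8%, 8.53% and 10.3%, so 20 min was again highest, but the difference at 30 min was 7.91 points.

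Stx5a had 53.8%, 28.1%, 66.3%, 14.9%, 20.5% and 15.2%, a difference from 0 min of -39 points at 30 min and -38.6 points at 4 h. A peak wholly inside the gene, with its summit in a Stx5a intron (6.62-fold at 0 min), was listed only at 0 and 20 min, and its absence made up 21.3 of the points lost at 30 min and at 4 h. The peak at the far end, with its summit in the 5′ UTR of the neighbour Nxf1 at 0 min (15714 bp past the start of Stx5a), began 10988 bp past the start at 0 min, 13146 bp at 30 min and 13016 bp at 4 h. It covered 24.4%, 8.11% and 9.09% of the body at those times. In the broad lists Stx5a had no cover at 0 min and 0.757% at 30 min.

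Vamp2, a synaptic and endosomal VAMP, had 53.7%, 86.3%, 83.6%, 74%, 33.2% and 26.7%. The peak over the far end reached well past the gene, by 8671 bp at 0 min and 14031 bp at 20 min, and its summits from 10 to 30 min lay in an intron of Per1. At 4 h this peak covered 23.4% of the body, against 35.4% at 0 min, and the promoter peak 3.35%, against 18.3%. Vps25, an ESCRT-II subunit, had 55.6%, 62.3%, 99.5%, 88.3%, 58% and 54.3%, 32.6 points higher at 30 min, and 99.9% of its body is annotated under Ramp2 as well. Vps29 had 93.3%, 74.6%, 88.1%, 71%, 86.1% and 73.3%, lower by over 20 points at both 30 min and 4 h by a small margin, and its far peak had its summit in 1500011H22Rik at 0 min. Vps72, named because its values stood out, was the gene with higher cover at 4 h: 11.7%, 7.79%, 45%, 8.4%, 10.3% and 41.6%. Its promoter peak at 4 h reached 5586 bp into the gene, against 1832 bp at 0 min. At Stx5a, Vamp2, Vps25, Vps29 and Vps37b a peak over the far end ran past the gene and had its summit in a neighbour at some or all of the times. For Vps25 that neighbour was Wnk4, and the body of Vps25 itself also lies under another gene. In those stretches cover of one gene could not be told apart from that of the other.

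**Figure D4:**
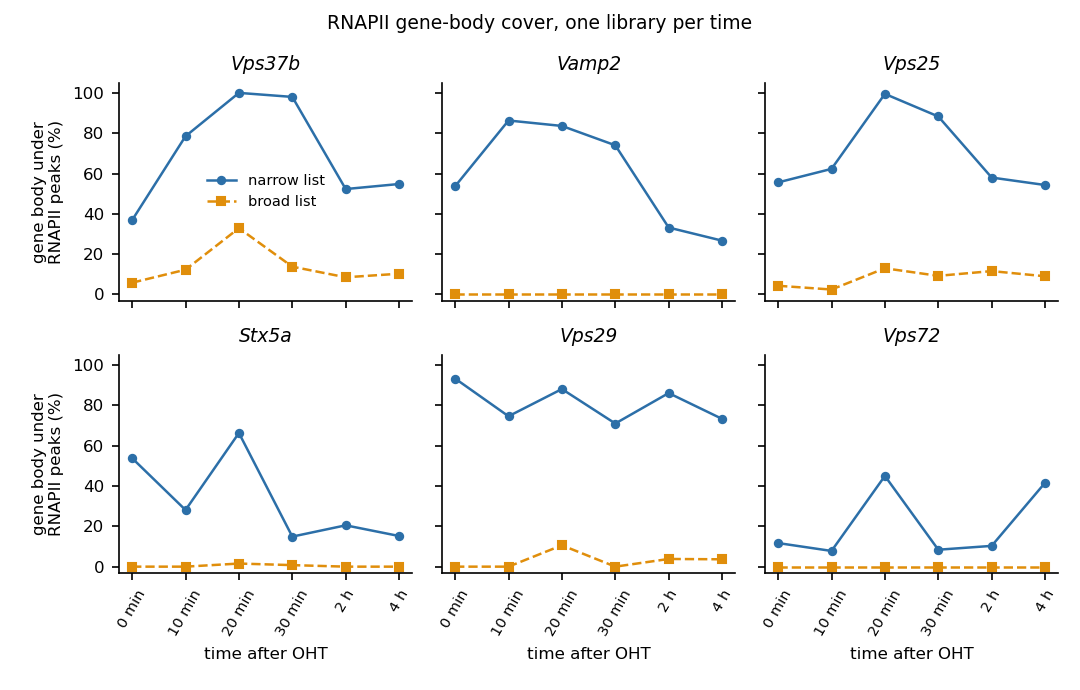
Percent of the gene body under RNAPII peaks at the 6 times for the 6 genes whose cover differed by over 20 points at 30 min or 4 h, with 1 library per point. Circles and solid lines are the narrow lists and squares and dashed lines the broad lists. Vps37b peaks at 20 and 30 min (100% and 98%), Stx5a is lower at 30 min and later, and the broad lists stay below 33% in every panel.

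**Figure D5:**
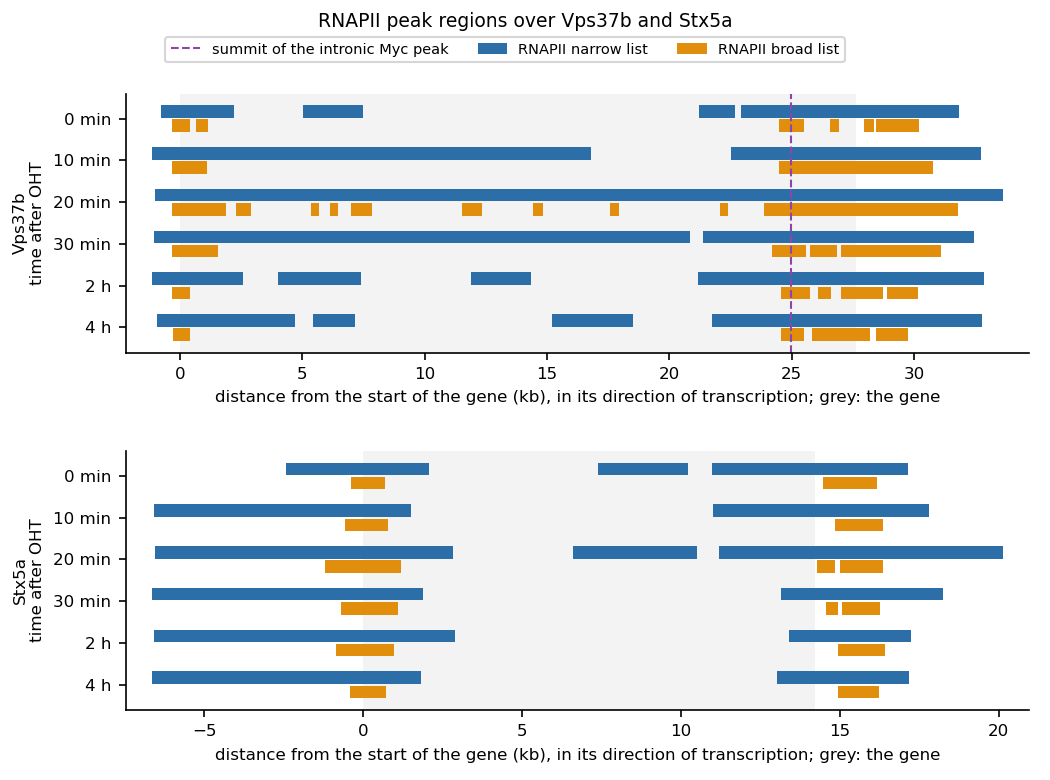
RNAPII peak regions over Vps37b (top) and Stx5a (bottom) at the 6 times, drawn by distance from the start of the gene (kb) in its direction of transcription, with narrow lists in blue, broad lists in orange and the gene in grey. The dashed line in the top panel is the summit of the intronic Myc peak. At Vps37b the blue bar at the promoter reaches 16788 bp at 10 min and the whole gene at 20 min, and at Stx5a the bar at the far end begins further along at 30 min and later, and the bar inside the gene is present only at 0 and 20 min.

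Among other genes of these pathways the calls were alike in kind. Myc was present at all 6 times at 24 of 28 genes of other SNAREs, NSF and SM proteins, at 15 of 16 other ESCRT genes and at 23 of 31 tethers and sorting partners, against 43.3% of all genes. The pattern of Stx8, Vps39 and Vps54 was seen at 1 (Stxbp5, which encodes tomosyn), 0 and 4 of them (Cog7, Exoc1, Exoc4 and Exoc6), against 1.62% of all genes. Miz1 was at 2, 2 and 2 promoters in fibroblasts (8.25% of all genes) and at 0, 1 and 3 in B cells (5.48%). One of these was called in both cell types, Exoc2, a subunit of the exocyst that tethers secretory vesicles at the cell surface, with 171-fold in fibroblasts and 74.8-fold in B cells. The others ranged up to 14.2-fold, at Vta1, a cofactor of the Vps4 ATPases.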

How the data were processed

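Genes were chosen by symbol, and the genes, the lists of roles, markers and pathways and the comparisons were chosen with earlier results of these data known. The submitters' processing notes name the mm9 build and BWA 0.6.2-r126 for alignment. Peaks had been called on 1 library against a control, per the file headers, with MACS 1.4.2 (Myc, narrow RNAPII) or MACS 2.0.9 (broad RNAPII, Miz1). The p cutoff was 1.00e-08 except for Miz1. The files hold, as deposited by the authors, raw counts of tags in a peak, pileup signal, a score of −10 times log10 p, −log10 p and q, a fold ratio over the control and a false discovery rate in percent. Tag counts were not scaled, so a deeper library lets weaker peaks pass. The −log10 p of the strongest Myc peaks is capped in the deposited scores.

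Promoters were 1000 bp either side of protein-coding starts of GENCODE vM1 with at least 1 bp of overlap. Chromosome names and lengths of the NCBIM37 reference were compared with the lists, and 2 peaks of the narrow RNAPII lists ended past a chromosome. Some Miz1 peaks lie on 4 or fewer unplaced sequences that the reference lacks, and these were not used. Promoter calls and body cover were tested on simulated peaks. Text names every gene bound by Miz1, gained for Myc or without calls (1 of the last is counted but not reported here by name), the 8 highest Myc folds at 4 h, and genes whose cover differed by over 20 points in the same direction at 30 min and 4 h or was among the 5 largest differences at 30 min. Peaks inside introns and at upstream starts were named after their values were seen. Alternatives changed promoter width, summit rule, peak significance, list length, list type, body start, entry rule and threshold. Python 3.11.15, pandas 2.3.3, numpy 2.4.6 and pysam 0.24.0 were used. With 1 library per group there is no replicate error.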

Additional observations from a re-analysis of the deposited data

How the results depend on the processing

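Of 111 values recomputed under an alternative, 85 stayed within 1.5 times of the reported one, 25 moved further and 1 changed sign. No paired analysis was possible because each group held 1 library. For Miz1, peaks at or above the median significance of their list left 2 genes in fibroblasts and 3 in B cells, the same number of peaks from each list left 2 in fibroblasts, the B cell cutoff left 2 in fibroblasts, and a 2500 bp promoter (Stx11 and Vps13a enter) or the starts of all transcripts (Vps13d enters) gave 2 in both lists. For Myc, the median filter gave 23 genes at 0 min, 28 at 4 h, 19 at all 6 times and 5 gained, none of them among the 3 reported. The gained class held 1 gene with the same number of peaks from each list and 5 without the 30 min list. For RNAPII, the median filter left 10 genes without a call. Body cover rests on the list and the threshold. With the broad lists, whose regions are shorter, 0 genes were higher or lower at 30 min or 4 h. In those lists Stx5a at 30 min was 0.8 points higher where the narrow lists had it lower. A threshold of 10 points gave 2 genes higher at 4 h, and one of 40 points left 1 higher at 30 min and 0 lower, and 0 in either direction at 4 h. The cause of these differences was not tested. A peak list has no depth per site, so a missing call is a peak that did not pass the cutoff, not absence of the protein.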

Other observations

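Some Miz1 peaks in these genes lay far from any coding start. In B cells Vps45, which encodes an SM protein of early endosomes, had an intronic peak of 10.6-fold at 25981 bp from its nearest coding start, Stx8 one of 7.65-fold at 113972 bp, and Vps16 one of 7.43-fold at 7459 bp. In fibroblasts Vps13b had 3 intronic peaks, of 2.38 to 4.29-fold, and Stx8 had 1 of 4.37-fold at 126219 bp, which lay 69 bp from the summit of its highest Myc peak at 0 min. Counting every peak in a gene and away from its coding starts, the fibroblast list had 8 in 6 genes and the B cell list 7 in 7 genes. The 2 counts are not alike, because the lists were called at different p cutoffs. Of the fibroblast peaks, that of Vps13d alone would pass the B cell cutoff of 1.00e-05, and the others had −log10 p of 2.25 to 4.93. The same counts over all genes were not computed.

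Myc was also listed inside genes of the GARP complex. Vps53 had intronic Myc peaks of 8.00 and 7.69-fold at 0 min and 4 of them at 4 h, the highest at 15.9-fold. Vps54, whose promoter had no Myc call at 0 min, had an intronic peak of 13.9-fold at 4 h, 39559 bp from its start.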
